A study of Mus musculus with 8 samples.

Results

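The collagen genes of mouse quadriceps muscle were taken as every row of the deposited expression table whose gene symbol reads Col, a number, a lower-case a and a number. The rule used the names alone and no measured value. It found 44 chains among the 47643 rows of the table, 1 gene for each collagen alpha chain. The study asked what the loss of Nup210, a membrane-spanning protein of the nuclear pore complex, does to skeletal muscle, and its RNA sequencing compared quadriceps of 4 mice labelled *Nup210*+/+ with 4 labelled *Nup210*-/-, with 1 library per mouse. All mice were labelled C57BL/6, and the methods name a backcross to C57BL/6J. According to the methods, the *Nup210*-/- mice carried a constitutive deletion of exon 2, made by crossing a line with loxP sites around that exon to *Hprt*-Cre mice, so every cell type of the muscle carried it and not the fibers alone. The age and sex of these 8 mice were not given in the sources used here, and no injury or drug treatment was named for them. Expression is given as TPM, a unit that corrects each gene for its transcript length and sets every library to a total of 1000000. TPM can therefore be compared between chains, but the read depth is unknown, and precision is judged here by how far the 4 mice of one genotype differed. *Nup210* itself was listed at 8.81 to 11.9 TPM in the libraries labelled *Nup210*-/- and at 5.71 to 10.1 TPM in those labelled *Nup210*+/+. A value over the whole gene does not show exon 2, so the labels could not be checked with it, and every direction below rests on the labels.

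Collagens are secreted proteins built from 3 alpha chains wound into a triple helix, in which glycine is the first residue of each Gly-X-Y unit and X and Y are often proline and hydroxyproline. In skeletal muscle most of them are made by fibroblasts of the connective tissue around fibers and bundles, while the basement membrane collagens are also made by the fibers and the vessels. Fibrillar chains form the cross-striated fibrils that carry tension, beaded filament chains (type VI) link fibrils to the surface of the basement membrane, network chains (type IV) form the sheet of the basement membrane itself, and FACIT chains (fibril-associated collagens with interrupted triple helices) sit on the fibril surface. Multiplexins have a helix with many breaks and lie next to basement membranes. The 44 chains fell into 9 classes by textbook structure, with 11 fibrillar, 6 basement membrane, 6 beaded filament and 9 FACIT chains, 1 anchoring fibril chain, 3 short-chain network chains, 2 multiplexins, 4 transmembrane chains and 2 others.

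The fibrillar class stands apart in the coding sequence. In the gene models used here (GENCODE M21 on GRCm38, the mm10 build), the longest uninterrupted run of Gly-X-Y codons was 216 to 344 units in the fibrillar chains, against 39 to 66 units in the basement membrane chains, 37 to 87 in the beaded filament chains, 32 to 113 in the FACIT chains and 30 in both multiplexins. Fibrillar genes also held 21 to 33 coding exons of exactly 54 bases, the length of 6 Gly-X-Y units, whereas basement membrane genes held 1 to 3 and beaded filament genes 2 or 3. These exons were counted by length alone. FACIT genes held 4 to 28, so on this count they overlap the fibrillar genes, and the run lengths of the other classes overlap each other. The first such exon with 6 in-frame units is printed for each of 7 highly expressed chains, to make the repeat visible. The glycine codon that opens each unit is in capitals, 5′ to 3′ on the coding strand.
Col1a1 (exon 8, chr11:94939904-94939957, plus strand): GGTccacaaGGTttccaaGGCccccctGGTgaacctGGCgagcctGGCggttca
Col1a2 (exon 8, chr6:4515481-4515534, plus strand): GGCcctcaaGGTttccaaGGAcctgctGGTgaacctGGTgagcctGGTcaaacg
Col3a1 (exon 6, chr1:45325360-45325413, plus strand): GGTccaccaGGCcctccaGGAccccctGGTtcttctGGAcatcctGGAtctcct
Col4a1 (exon 7, chr8:11245211-11245264, minus strand): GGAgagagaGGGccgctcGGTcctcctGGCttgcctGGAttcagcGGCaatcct
Col4a2 (exon 17, chr8:11413979-11414032, plus strand): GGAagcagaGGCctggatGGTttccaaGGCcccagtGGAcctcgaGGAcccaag
Col6a1 (exon 9, chr10:76719623-76719676, minus strand): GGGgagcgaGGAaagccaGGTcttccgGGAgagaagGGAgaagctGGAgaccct
Col6a2 (exon 6, chr10:76611948-76612001, minus strand): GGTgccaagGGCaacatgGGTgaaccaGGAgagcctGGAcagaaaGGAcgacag
Base by base and without alignment, the printed exons of *Col1a1* and *Col1a2* shared 42 of 54 bases, and those of *Col1a1* and *Col3a1* shared 35. Those of *Col6a1* and *Col6a2* shared 26 and those of *Col4a1* and *Col4a2* shared 24, fewer than the 30 of *Col4a1* and *Col6a1*, which are not partners. The exons were not matched by their place in the helix, and all share the glycine codons by selection. These counts therefore do not rank partner chains by likeness. Some of these genes lie near another collagen gene. *Col4a1* and *Col4a2* are head to head on chromosome 8 and their annotated ends overlap by 22 bases, *Col3a1* and *Col5a2* are tail to tail on chromosome 1, 24614 bases apart, and *Col6a1* and *Col6a2* point the same way on chromosome 10, 85161 bases apart.

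In the *Nup210*+/+ libraries the collagen transcripts were ordered steeply. *Col3a1* stood first with a mean of 137 TPM and *Col1a2* second with 63.0 TPM, each separated from the next chain in every library. Below them came *Col6a2*, *Col4a1*, *Col1a1*, *Col6a1* and *Col6a3*, whose means between 33.3 and 35.4 TPM lay within each other's spread. *Col6a3* was in turn separate from *Col15a1*, with a mean of 23.7 TPM. Of the 44 chains, 29 reached a mean of 0.5 TPM over the 8 libraries and were tested. The other 15 had means of 0.466 TPM or less, among them *Col2a1* of cartilage (0.145 TPM), the 3 type IX chains (0.104 to 0.195 TPM) and *Col10a1* of growth plate cartilage, which was listed at 0 in 6 of 8 libraries. No chain was listed at 0 in all libraries. The largest mean among the untested chains was that of *Col13a1*, and the smallest among the tested was that of *Col11a1*, 0.509 TPM.

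The summed TPM of the 44 chains was 503, 423, 545 and 528 in the 4 *Nup210*+/+ libraries and 337, 399, 337 and 338 in the 4 *Nup210*-/- libraries. Every *Nup210*-/- library lay below every *Nup210*+/+ library, and the mean was 353 ± 30.8 TPM (SD, n = 4) against 500.0 ± 53.9 TPM. Sums, shares and means in TPM here and below are as deposited, before the scaling described at the end of this paragraph. As deposited, the median log2 fold change of all genes tested (*Nup210*-/- minus *Nup210*+/+) was -0.08, against -0.01 after scaling. The lower sum did not come from *Col3a1* alone. This chain held 27.4 ± 2.03% of the collagen TPM in *Nup210*+/+ and 26.2 ± 2.45% in *Nup210*-/-, so the other chains together were lower too. Some chains in the plot by library were picked by their p or lack of overlap. The plot therefore does not show how widely the difference was spread over the chains. A lower TPM in whole muscle can come from fewer cells that make collagen or from less collagen RNA per cell. Because TPM are shares of a fixed total, it can also come from a larger share of other transcripts. Bulk samples in TPM cannot tell these apart. Differences between genotypes were tested with limma on log2(scaled TPM + 1), where each library was first divided by the median of its ratios to the other libraries. Fold changes are given on that log2 scale, which understates the change of chains with low TPM, with the SE of the estimate and the p adjusted over all 14229 genes tested.

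**Figure D1:**
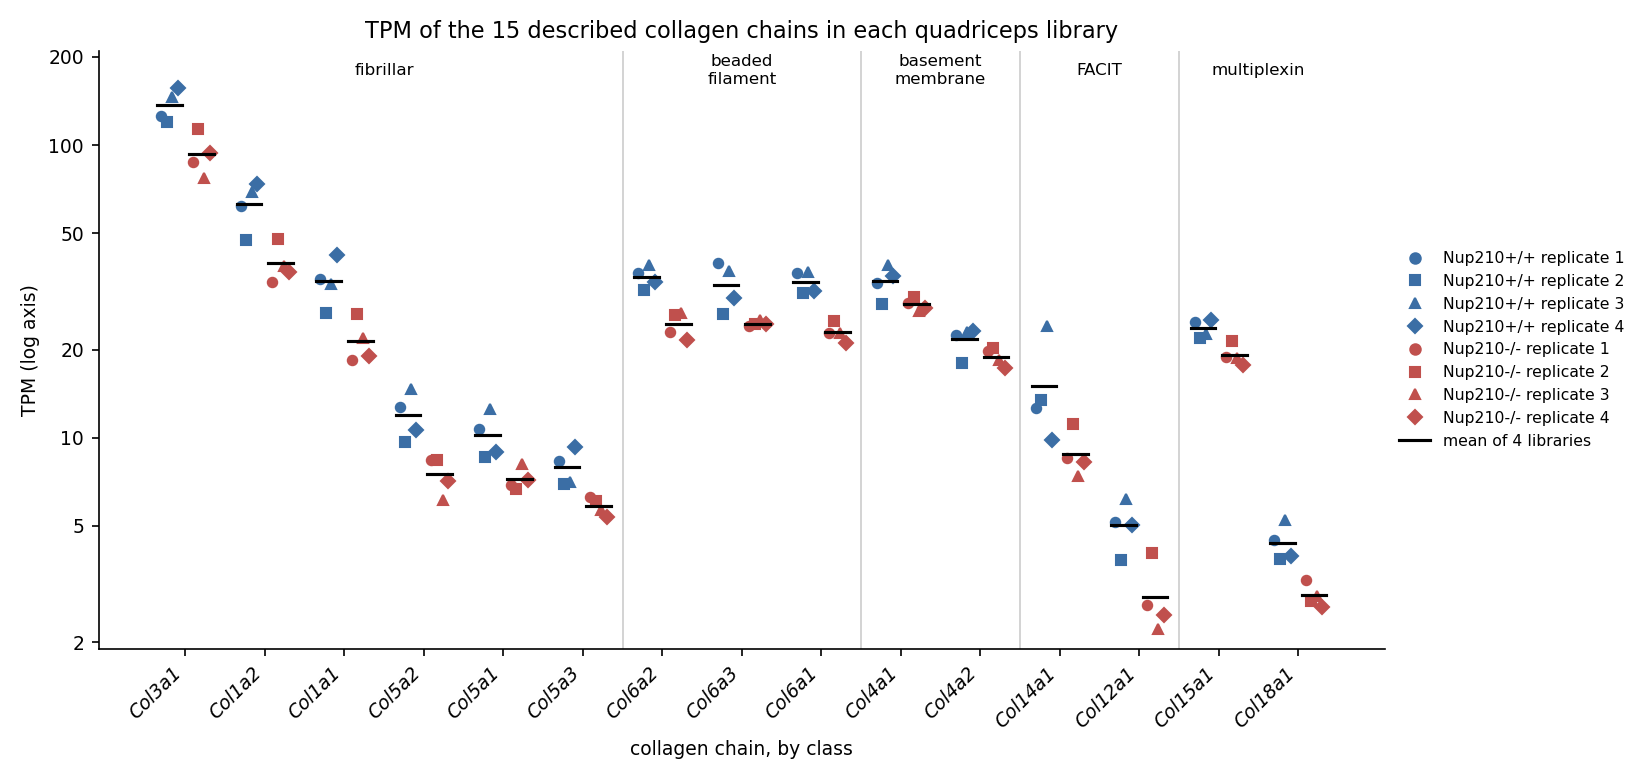
TPM (log axis) of the 15 chains described library by library, ordered by class and level, with *Nup210*+/+ in blue, *Nup210*-/- in red, a marker shape for each replicate number and a bar at the mean of 4 libraries. The *Col3a1* points span 119.7 to 157 TPM in blue and 77.15 to 113 TPM in red, while the 2 genotypes overlap for *Col4a1* and *Col4a2*.

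The fibrillar chains had lower estimates in *Nup210*-/- without exception among the 10 tested, against 51.3% of all genes tested. At an unadjusted limma p under 0.05, 6 of them were lower, against 7.18% of all genes. *Col3a1* (ENSMUSG00000026043, chr1:45311538-45349706, plus strand), the single chain of the homotrimeric type III collagen of elastic connective tissue, was measured at 126, 119.7, 146 and 157 TPM in *Nup210*+/+ and at 87.7, 113, 77.15 and 93.6 TPM in *Nup210*-/-. The genotypes did not overlap, and the mean TPM as deposited was 32.2% lower in *Nup210*-/-. After scaling, the log2 fold change of -0.47 (SE 0.139), or 27.6% lower, had a limma adjusted p of 0.202. *Col1a2* (ENSMUSG00000029661, chr6:4504814-4541544, plus strand), a chain of type I collagen, the main fibril of tendon and fascia, was at 62.0, 47.4, 69.2 and 73.5 TPM in *Nup210*+/+ and at 34.2, 47.8, 38.7 and 36.9 TPM in *Nup210*-/-. Its *Nup210*-/- replicate 2 stood just above *Nup210*+/+ replicate 2, which was the sole overlap, and the log2 fold change was -0.56 (SE 0.150, limma adjusted p 0.170). *Col1a1* (ENSMUSG00000001506, chr11:94936224-94953042, plus strand), its partner chain, was at 34.8, 26.6, 33.5 and 42.0 TPM against 18.5, 26.5, 21.8 and 19.1 TPM. The same 2 libraries met at almost one value, and the log2 fold change was -0.55 (SE 0.160, limma adjusted p 0.192). As deposited, the mean TPM of these 3 chains were 32.2 to 37.5% lower in *Nup210*-/-, but none passed the adjusted threshold.

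The type V chains, which start type I fibrils and limit their diameter, showed the same order of genotypes at a lower level. *Col5a1* (ENSMUSG00000026837, chr2:27886425-28039514, plus strand) was at 10.7, 8.61, 12.5 and 8.93 TPM in *Nup210*+/+ and at 6.88, 6.70, 8.16 and 7.19 TPM in *Nup210*-/-. *Col5a2* (ENSMUSG00000026042, chr1:45374321-45503282, minus strand) was at 12.8, 9.70, 14.7 and 10.7 TPM against 8.40, 8.39, 6.13 and 7.10 TPM. Neither chain overlapped between the genotypes, with log2 fold changes of -0.35 (SE 0.0995) and -0.51 (SE 0.131) and limma adjusted p of 0.190 and 0.164. *Col5a3* (ENSMUSG00000004098, chr9:20770050-20815067, minus strand) was at 8.32, 6.98, 7.05 and 9.33 TPM against 6.27, 6.09, 5.67 and 5.36 TPM, a log2 fold change of -0.29 (SE 0.127, limma adjusted p 0.342). Its TPM did not overlap, but after scaling the highest *Nup210*-/- value lay above the lowest *Nup210*+/+ value. The other tested fibrillar chains, *Col24a1*, *Col27a1*, *Col11a1* and *Col11a2*, had means of 0.509 to 1.77 TPM over all libraries, overlapped between genotypes and had estimates of -0.30 to -0.07.

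The beaded filament chains of type VI collagen gave the smallest p among all collagens. *Col6a1* (ENSMUSG00000001119, chr10:76708792-76726168, minus strand) was at 36.4, 31.1, 36.7 and 31.7 TPM in *Nup210*+/+ and at 22.8, 25.0, 22.8 and 21.03 TPM in *Nup210*-/-. The genotypes were clearly apart, and the mean TPM as deposited was 32.6% lower. After scaling, the log2 fold change of -0.46 (SE 0.0696, 95% interval -0.61 to -0.30) had a limma adjusted p of 0.0540, just outside the threshold. *Col6a2* (ENSMUSG00000020241, chr10:76595762-76623630, minus strand) was at 36.6, 32.1, 38.8 and 34.0 TPM against 22.9, 26.3, 26.7 and 21.6 TPM. It did not overlap either, with a log2 fold change of -0.43 (SE 0.0735, 95% interval -0.59 to -0.26) and a limma adjusted p of 0.0670. *Col6a3* (ENSMUSG00000048126, chr1:90765923-90843971, minus strand), the long chain that completes the type VI heterotrimer, was at 39.5, 26.4, 37.2 and 29.9 TPM against 24.0, 24.4, 25.2 and 24.5 TPM. Its *Nup210*-/- values were almost equal and lay below all *Nup210*+/+ values, though not after scaling, and the log2 fold change was -0.32 (SE 0.109, limma adjusted p 0.247). *Col6a6* had a mean of 1.54 TPM and an estimate of -0.27, and *Col6a4* and *Col6a5* were below the level tested. With weights for the libraries in limma, *Col6a1* and *Col6a2* reached adjusted p of 0.0244 and 0.0331, and with a minimum mean of 1 TPM *Col6a1* reached 0.0496. Without the trend in limma the adjusted p were 0.129 and 0.137, with the replicate block 0.232 and 0.240, and with 1 library left out they ran from 0.0552 to 0.175 for *Col6a1* and from 0.0552 to 0.214 for *Col6a2*.

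The basement membrane chains had the class median nearest to 0 among the classes with several tested chains, -0.09, or -0.17 without *Nup210*+/+ replicate 2. *Col4a1* (ENSMUSG00000031502, chr8:11198423-11312826, minus strand), present in every basement membrane, was at 33.9, 28.7, 38.9 and 35.7 TPM in *Nup210*+/+ and at 28.97, 30.3, 27.2 and 27.8 TPM in *Nup210*-/-. *Col4a2* (ENSMUSG00000031503, chr8:11312805-11449287, plus strand), its partner, was at 22.5, 18.0, 23.0 and 23.2 TPM against 19.8, 20.2, 18.4 and 17.3 TPM. In both chains *Nup210*+/+ replicate 2 lay inside the range of *Nup210*-/-, and the genotypes overlapped. The log2 fold changes were -0.16 (95% interval -0.37 to 0.05) and -0.09 (-0.32 to 0.14), with limma adjusted p of 0.469 and 0.702. A decrease of the size estimated for *Col6a1* lay outside both intervals, but smaller decreases lay inside. Without *Nup210*+/+ replicate 2 the estimates were -0.24 and -0.17, and without *Nup210*+/+ replicate 4 they were -0.10 and -0.02. *Col4a5*, with a mean of 1.45 TPM, had an estimate of -0.09, and *Col4a3*, *Col4a4* and *Col4a6*, the chains of specialised basement membranes, were at means of 0.420 TPM or less. The exons of *Col4a1* and *Col4a2* overlap on opposite strands, and the setting for strand in the counting was not given in the sources used here.

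Of the 5 FACIT chains tested, 2 were lower at an unadjusted p under 0.05, against 7.18% of all genes tested. *Col12a1* (ENSMUSG00000032332, chr9:79598991-79718831, minus strand), which bridges neighbouring fibrils, was at 5.15, 3.83, 6.19 and 5.05 TPM in *Nup210*+/+ and at 2.69, 4.03, 2.22 and 2.49 TPM in *Nup210*-/-. Its estimate of -0.58 (SE 0.161, limma adjusted p 0.182) was the lowest of the 29 chains, although the replicate numbered 2 of each genotype overlapped. *Col14a1* (ENSMUSG00000022371, chr15:55307750-55520803, plus strand), a fibril-surface chain of perimysium and tendon, was at 12.6, 13.5, 24.2 and 9.79 TPM against 8.52, 11.1, 7.42 and 8.24 TPM. Here *Nup210*+/+ replicate 3 was far above the others, *Nup210*+/+ replicate 4 lay inside the *Nup210*-/- range, and the log2 fold change of -0.56 was -0.35 without *Nup210*+/+ replicate 3 and -0.69 without *Nup210*+/+ replicate 4. *Col22a1*, the chain of the junction between muscle and tendon, was the one FACIT with a positive estimate. Its TPM were 2.75 to 6.21 in the *Nup210*-/- libraries and 2.58 to 4.37 in the *Nup210*+/+ libraries, with a log2 fold change of 0.20 (95% interval -0.31 to 0.71).

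Both multiplexins had lower estimates, against 51.3% of all genes tested. *Col18a1* (ENSMUSG00000001435, chr10:77052178-77166548, minus strand), the precursor of the fragment endostatin, was at 4.48, 3.85, 5.24 and 3.96 TPM in *Nup210*+/+ and at 3.27, 2.77, 2.89 and 2.65 TPM in *Nup210*-/-. The genotypes did not overlap, and the log2 fold change was -0.39 (SE 0.0990, limma adjusted p 0.164). *Col15a1* (ENSMUSG00000028339, chr4:47208161-47313167, plus strand), which ties the basement membrane to the fibrils beneath it, was at 24.9, 22.0, 22.6 and 25.2 TPM against 18.8, 21.4, 18.7 and 17.7 TPM. Its estimate was smaller, -0.20 (95% interval -0.41 to 0.01, limma adjusted p 0.376), and an unnamed gene model on the opposite strand overlaps its exons. Among the other chains described library by library, exons of *Col3a1* overlap those of *Gm47302* on the same strand. Exons of *Col5a1* overlap *2810430I11Rik* and *Gm13372* on the opposite strand, and those of *Col4a2* also overlap *Gm15419* there. Among the remaining classes, the short-chain network chains *Col8a1* and *Col8a2* had estimates of -0.20 and -0.38, the transmembrane chain *Col23a1* had -0.12 and *Col26a1* had -0.12, none at an unadjusted p under 0.05. *Col7a1*, the anchoring fibril chain, had the highest estimate of the 29 chains, 0.21 (95% interval -0.17 to 0.60, and 0.09 without *Nup210*+/+ replicate 2), with 4.13 to 6.53 TPM in *Nup210*-/- and 3.48 to 5.56 TPM in *Nup210*+/+.

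Across the 29 chains tested, 27 had a lower estimate in *Nup210*-/-, against 51.3% of all genes tested. Lower at an unadjusted limma p under 0.05 were 12 chains, where the share among all genes was 7.18%, and higher were 0 chains, where it was 7.00%. On scaled TPM, 6 chains were lower without overlap of the genotypes, against 4.60% of all genes, namely *Col6a1*, *Col6a2*, *Col3a1*, *Col5a1*, *Col5a2* and *Col18a1*, and no chain was higher without overlap, against 4.78%. Complete separation of 4 libraries from 4 fixes the two-sided exact permutation p at 0.0286, the smallest that the 70 labelings allow. That p restates the separation of these 6 chains and adds no further support. None of the 29 chains passed the adjusted p of 0.05 in limma, which 0.0633% of all genes did in the lower and 0.0492% in the higher direction. The median log2 fold change of the chains was -0.27, with a range of -0.58 to 0.21, beside -0.01 for all genes. By class, the medians were -0.32 over 10 fibrillar chains, -0.37 over 4 beaded filament chains, -0.26 over 5 FACIT chains and -0.09 over 3 basement membrane chains. The chains are not independent of each other, since most are made by the same cells, so the counts describe the family and are no test of it. With TPM as deposited, before scaling, 15 chains were lower at an unadjusted p under 0.05 against 11.8% of all genes, and the share of lower among all genes at that p was 83.4%, compared with 50.6% after scaling.

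**Figure D2:**
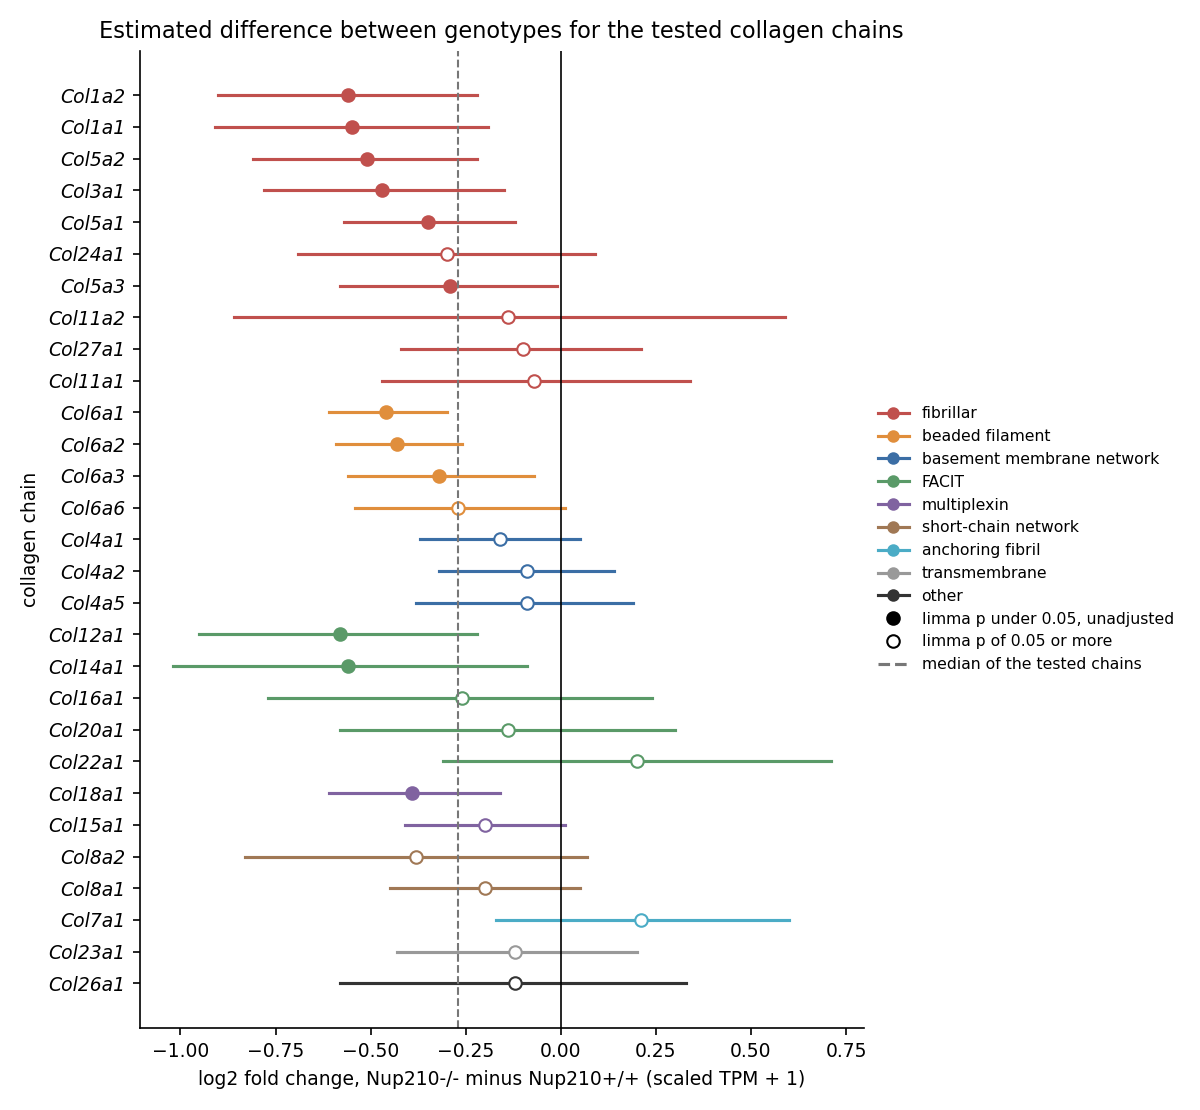
Estimated log2 fold change (*Nup210*-/- minus *Nup210*+/+, scaled TPM + 1) of the 29 tested chains with its 95% interval, colored by class and filled where the unadjusted limma p was under 0.05. Of the estimates, 27 lie left of 0, the dashed median is at -0.27, and the basement membrane class has the median closest to 0 among the classes with several chains, -0.09.

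The share of each class in the collagen TPM was compared between libraries. Basement membrane chains made up 11.8, 11.5, 11.8 and 11.5% of the collagen TPM in the *Nup210*+/+ libraries and 15.1, 13.2, 14.2 and 14.0% in the *Nup210*-/- libraries. The narrow *Nup210*+/+ range lay wholly below that of *Nup210*-/-. Their summed TPM as deposited was nevertheless lower in *Nup210*-/-, 49.7 ± 2.57 against 58.4 ± 6.72 (SD, n = 4), a ratio of the means of 0.850. The ratio was 0.662 for the fibrillar chains, 0.700 for the beaded filament chains, 0.683 for the FACIT chains and 0.787 for the multiplexins. Fibrillar chains took 51.6 to 58.1% of the collagen TPM in *Nup210*+/+ and 48.6 to 53.5% in *Nup210*-/-, so their shares overlapped. Beaded filament chains held 20.97 ± 1.82% and 20.8 ± 1.37%. Shares of one total are bound to each other, and these are given as a description without a test.

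**Figure D3:**
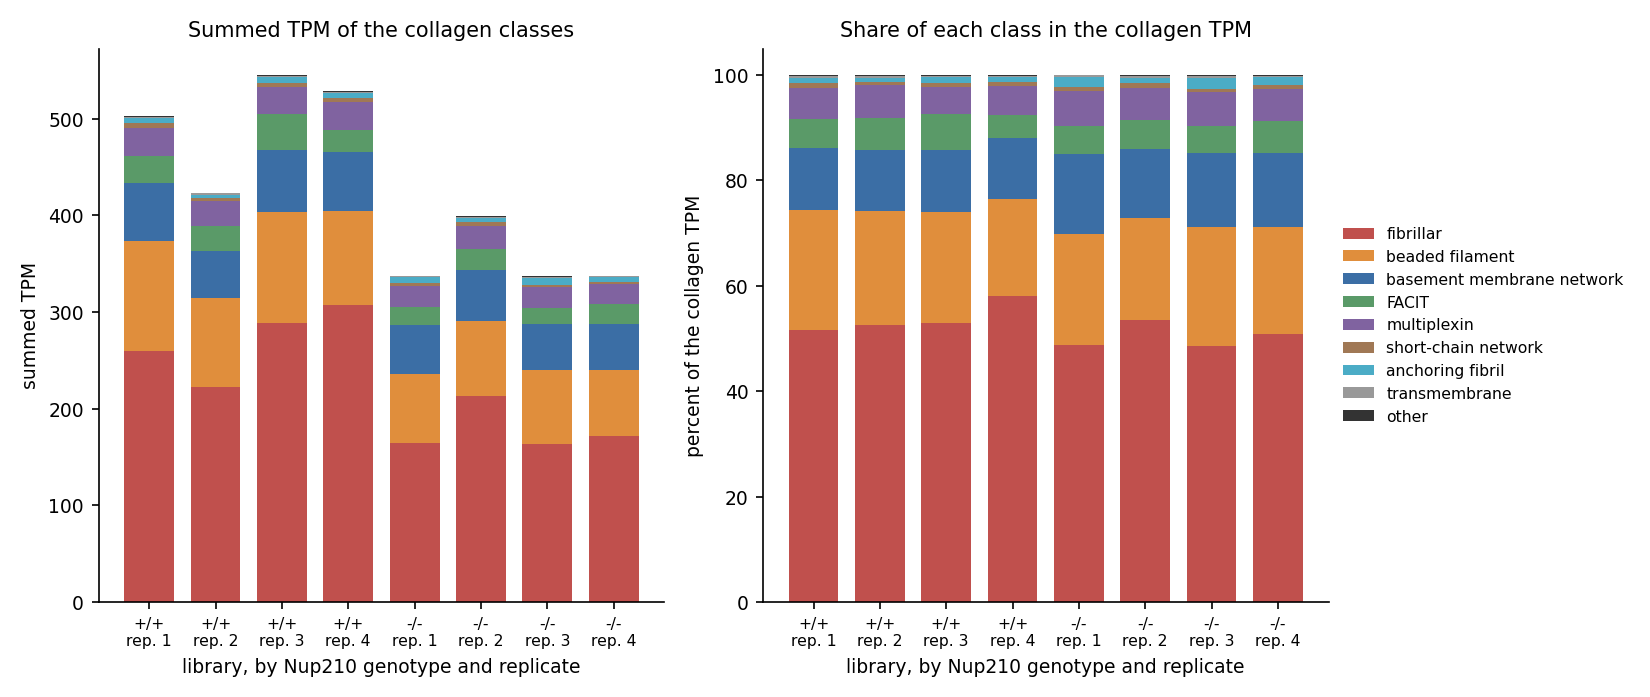
Summed TPM of each collagen class (left) and its percent of the collagen TPM (right) in the 8 libraries, stacked by class, with the *Nup210*+/+ libraries first. The stacks reach 423 to 545 TPM in *Nup210*+/+ and 337 to 399 TPM in *Nup210*-/-, and the blue basement membrane share is 11.5 to 11.8% and 13.2 to 15.1%.

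Ratios of 2 chains within a library do not depend on the scaling between libraries, and 10 pairs were compared with exact permutation tests. Among chains that assemble into one trimer, *Col1a1* to *Col1a2* stood between 0.485 and 0.572 over the 8 libraries, with a coefficient of variation of 5.46%. *Col4a1* to *Col4a2* stood between 1.47 and 1.69 (coefficient of variation 5.06%), and *Col6a1* to *Col6a2* between 0.853 and 0.996 (4.83%). Other partner chains varied more. *Col5a1* to *Col5a2* had a coefficient of variation of 19.3%, at 0.839 to 0.888 in *Nup210*+/+ and 0.799 to 1.33 in *Nup210*-/-, where replicate 3 was the high one. *Col6a1* to *Col6a3* stood between 0.858 and 1.18 (10.3%, log2 difference -0.15). None of these ratios differed between genotypes at p under 0.05 by the exact permutation test. Of the ratios between classes, those of *Col6a1* and *Col1a1* to *Col4a1* differed most. *Col6a1* to *Col4a1* was 1.08, 1.09, 0.943 and 0.888 in *Nup210*+/+ and 0.788, 0.825, 0.840 and 0.757 in *Nup210*-/-, without overlap, a log2 difference of -0.31 with an exact permutation p of 0.0286. *Col1a1* to *Col4a1* was 1.03, 0.929, 0.862 and 1.18 against 0.639, 0.875, 0.804 and 0.686, a log2 difference of -0.41 (exact permutation p 0.0571). After Benjamini-Hochberg adjustment over the 10 pairs both values were 0.286, so neither difference passed. *Col1a1* to *Col6a1* (log2 difference -0.10) and *Col3a1* to *Col1a1* (0.10) overlapped widely, with exact permutation p of 0.600 and 0.457. *Col15a1* to *Col4a1*, also a pair of different classes, had a coefficient of variation of 8.59% and a log2 difference of -0.05 (exact permutation p 0.686).

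**Figure D4:**
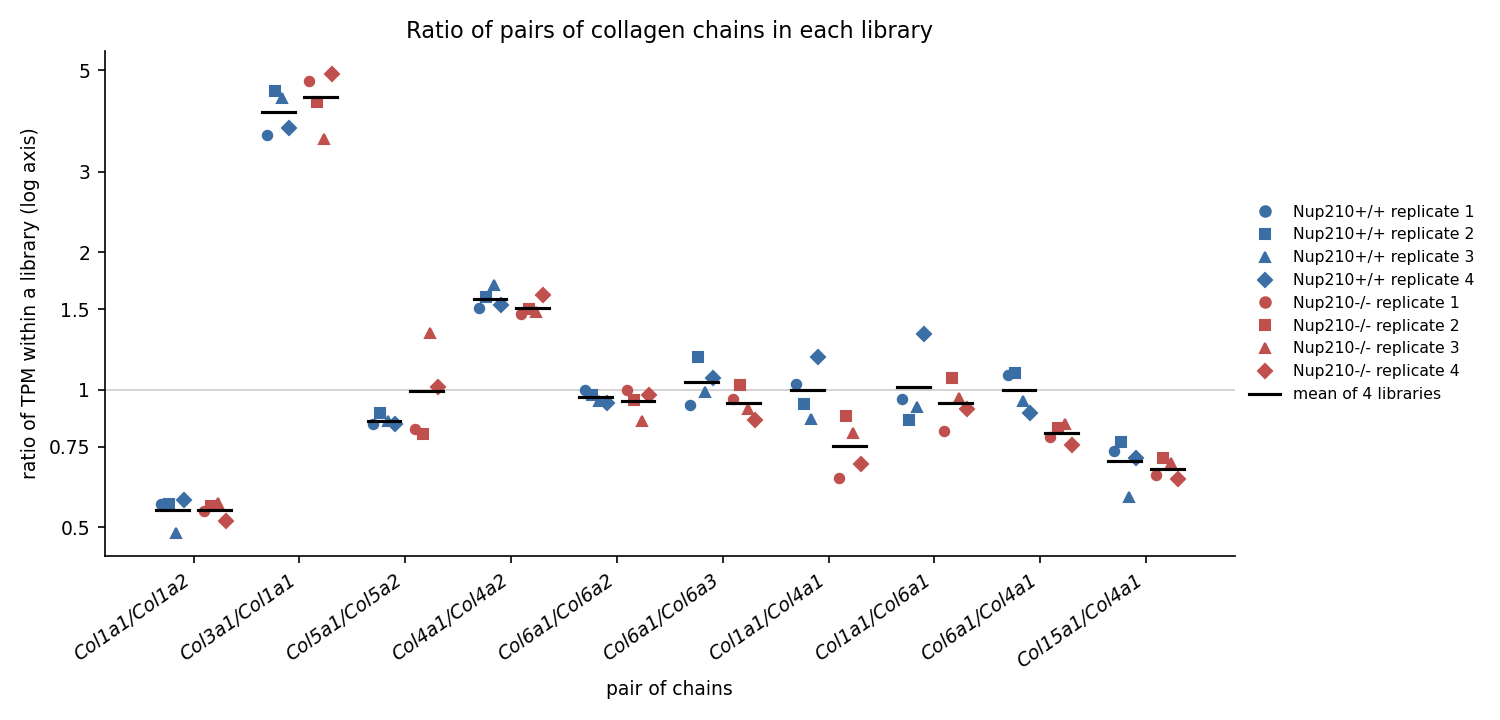
Ratio of TPM within each library (log axis) for 10 pairs of chains, with *Nup210*+/+ in blue, *Nup210*-/- in red and a bar at the mean of 4 libraries. The points of *Col6a1*/*Col4a1* do not overlap between genotypes, and those of *Col1a1*/*Col1a2* lie between 0.485 and 0.572 in all libraries.

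Genes that modify, fold, cut and bind collagen were read from 8 lists by their step in the pathway. Of the 14 tested genes for chain hydroxylation and glycosylation, 4 were lower at an unadjusted limma p under 0.05 and 0 higher, with a median log2 fold change of -0.17. They were *P4ha1* (46.4 ± 3.90 against 36.8 ± 3.18 TPM, *Nup210*+/+ against *Nup210*-/-) and *P4hb*, the subunits of prolyl 4-hydroxylase, with log2 fold changes of -0.23 and -0.35, *Ppib*, a prolyl isomerase (-0.34), and *Crtap* of the 3-hydroxylation complex (-0.46). Without *Nup210*+/+ replicate 2 the value for *P4hb* was -0.23. Of the 12 genes for procollagen folding and export, 6 were lower and 3 higher. *Serpinh1*, which encodes the collagen chaperone HSP47, had a mean of 83.6 ± 11.5 TPM in *Nup210*+/+ against 49.3 ± 4.40 TPM (SD, n = 4). The genotypes did not overlap, with a log2 fold change of -0.65 and a limma adjusted p of 0.0599, near that of *Col6a1*. Also at the lowest p of that list were *Fkbp7*, an isomerase of the endoplasmic reticulum (-0.49), *Sparc*, a collagen-binding chaperone (-0.34), and, in the other direction, *Tmem38b*, a potassium channel of the endoplasmic reticulum (0.29). Without *Nup210*+/+ replicate 2, 1 gene of the list was higher in place of 3.

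Of the 4 tested genes for propeptide cleavage, 3 were lower and 0 higher, namely *Pcolce*, the enhancer of the C-proteinase (51.7 ± 5.65 against 36.2 ± 2.7 TPM, log2 fold change -0.41, limma adjusted p 0.0779), *Adamts2*, the N-proteinase (-0.47), and *Bmp1*, the C-proteinase (-0.35). Of the 6 cross-linking enzymes, 2 were lower, the lysyl oxidase paralogs *Loxl2* (-0.43) and *Loxl3* (-0.38). All 14 fibril-binding proteoglycans and glycoproteins had lower estimates, 9 of them at an unadjusted p under 0.05, with a median of -0.36. Lowest in p were *Comp*, a pentameric glycoprotein of tendon and cartilage (11.5 ± 3.27 against 4.99 ± 1.58 TPM, -0.98), *Thbs1* (-0.62), *Postn* (-0.51) and *Bgn*, a small leucine-rich proteoglycan (-0.39). Genes for collagen breakdown and for the inhibitors of that breakdown, read as 1 list, had lower estimates in 10 of 11 cases. At an unadjusted p under 0.05, 3 were lower and 0 higher, the gelatinase *Mmp2* (-0.32), the membrane-type collagenase *Mmp14* (-0.28) and the inhibitor *Timp2* (-0.37).

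The receptors of collagen and the TGF-beta pathway, a known inducer of collagen transcription, did not show that direction throughout. Of 7 collagen receptors tested, 2 were lower, the integrin chain *Itga11* (4.38 ± 0.780 against 2.69 ± 0.420 TPM, -0.47) and the receptor kinase *Ddr2* (-0.41), and the median was -0.03, or -0.11 without *Nup210*+/+ replicate 2. Of 15 TGF-beta pathway genes, 1 was lower, the receptor *Tgfbr2* (-0.40), and 3 were higher, among them the signal transducers *Smad3* (0.20) and *Smad2* (0.25), with a median of 0.04. Without *Nup210*+/+ replicate 2, 3 were lower and 2 higher, with a median of -0.02, so the balance of this list rests on that library. No gene of the 8 lists passed the adjusted p of 0.05, and the lowest adjusted p of each list lay between 0.0599 and 0.177. The background for these counts is the 51.3% of all genes with a lower estimate. At an unadjusted p under 0.05 it is the 7.18% that were lower and the 7.00% that were higher.

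Markers of the cells that make collagen had lower estimates as well. Beside the counts of this paragraph, 51.3% of all genes tested had a lower estimate. At an unadjusted limma p under 0.05, 7.18% of all genes were lower and 7.00% higher, and 0.0633% were lower at an adjusted p under 0.05. All 9 fibroblast markers had lower estimates, with a median of -0.34 and 4 at an unadjusted limma p under 0.05 (*Cd34* -0.43, *Clec3b* -0.45, *Dcn* -0.34, *Dpt* -0.41). Their summed TPM was 1432 to 1575 in *Nup210*-/- and 1413 to 2816 in *Nup210*+/+, so the sums overlapped where those of the collagens did not. All 6 tendon cell markers had lower estimates too, with a median of -0.53 and sums of 87.6 to 134 TPM against 118 to 199 TPM. At an unadjusted limma p under 0.05 were 4 of them, *Kera* (-0.61), *Fmod* (-0.59), *Tnmd* (-0.55) and *Thbs4* (-0.51). *Scx* (-0.09) and *Mkx* (-0.06) were near 0. *Dcn* and *Dpt* of the fibroblast list and *Fmod* of the tendon list are also fibril-binding genes above. Leukocyte markers summed to 111 to 128 TPM in *Nup210*-/- and 139 to 275 TPM in *Nup210*+/+, with 6 of 6 estimates lower, a median of -0.63, and 1 past the adjusted p, *Cd52* (-0.81, limma adjusted p 0.0490). Without *Nup210*+/+ replicate 2 the adjusted p of *Cd52* was 0.0552 and the median of the list was -0.46, and with the replicate block, without the trend or with upper-quartile scaling no gene of the table passed the adjusted p. Endothelial, mural and Schwann cell markers had medians of -0.08, -0.02 and -0.03. The 4 fat cell markers had lower estimates (median -0.11, or -0.24 without *Nup210*+/+ replicate 2), and the 3 tested muscle stem cell markers had higher ones (median 0.12), 1 of them at an unadjusted p under 0.05. Muscle fiber markers, which checked the labelled tissue, summed to 71190 to 74580 TPM in *Nup210*+/+ and 77660 to 81910 TPM in *Nup210*-/-. All 6 had higher estimates, with a median of 0.20 and 3 at an unadjusted limma p under 0.05. Without *Nup210*+/+ replicate 2, 1 estimate was lower and 1 gene was higher at that p. Of the 8 cartilage or bone markers, 2 reached the level tested, and both had lower estimates with overlapping genotypes. *Chad* was at -0.79 (18.7 ± 6.44 TPM in *Nup210*+/+ against 10.1 ± 5.22 TPM) and *Sox9* at -0.28. *Acan* and *Bglap* were listed at 0 in all libraries. The part of these cell types in the collagen difference was not tested.

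**Figure D5:**
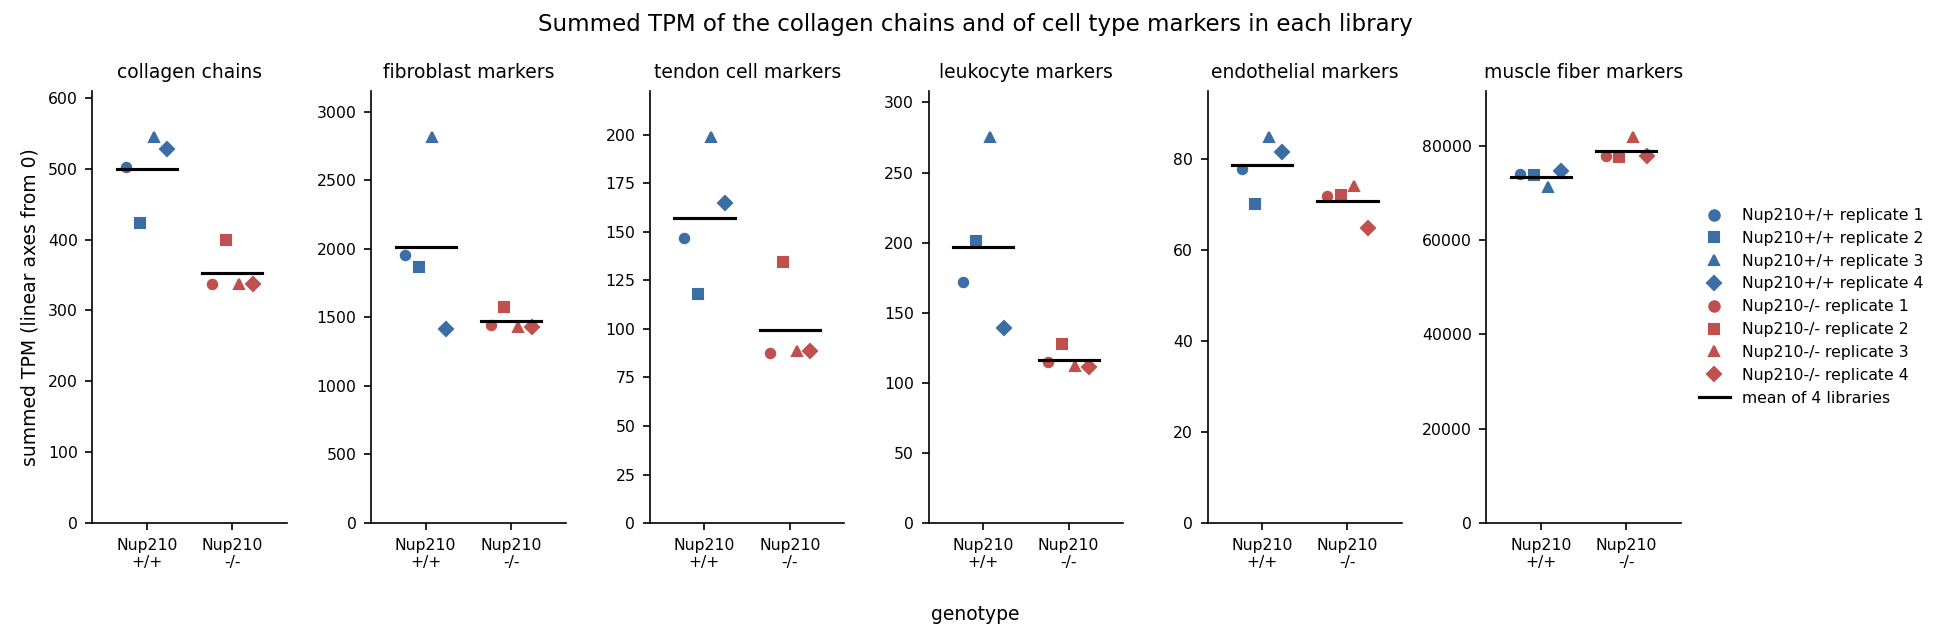
Summed TPM of the 44 collagen chains and of 5 sets of cell type markers in each library (linear axes from 0), with *Nup210*+/+ in blue, *Nup210*-/- in red and a bar at the mean of 4 libraries. The collagen sums do not overlap between genotypes, the fibroblast sums do, and the muscle fiber sums are higher in every *Nup210*-/- library.

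Single libraries were often at the edge of their genotype. Of the 29 tested chains, 18 were lowest in replicate 2 among the *Nup210*+/+ libraries, and 14 were highest and 7 lowest in replicate 2 among the *Nup210*-/- libraries. These are the libraries at which the genotypes met in *Col1a2*, *Col1a1* and *Col12a1*. *Nup210*+/+ replicate 2 also held 382 TPM in 6 granulocyte precursor markers, genes that are normally restricted to bone marrow, where the other 7 libraries held 0.310 to 2.12 TPM. Without that library, 13 chains were lower without overlap of the genotypes against 6.57% of all genes, 16 were lower at an unadjusted limma p under 0.05 against 6.74%, the median log2 fold change was -0.28, and the lowest adjusted p of a chain was 0.0552. Without *Nup210*-/- replicate 2, 12 chains were lower without overlap, against 7.20% of all genes. The part of bone marrow transcripts in the collagen values of *Nup210*+/+ replicate 2 was not tested. The spread between mice was larger in *Nup210*+/+ for 19 of the 29 chains (65.5%), close to the 62.8% of all genes tested.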

How the data were processed

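RNA of quadriceps from 8 mice was poly(A)-selected, made into directional libraries and sequenced single-end by the authors. They trimmed reads with cutadapt 2.3, aligned them to mm10 with STAR 2.7.0d and estimated expression with RSEM 1.3.1 and Ensembl annotations. The authors deposited 1 table of TPM with 2 decimals per gene and library, with replicates not pooled. Each library sums to 1000000 within rounding, so depth is unknown and no counting interval is given. Estimated counts, which the authors tested, were not used here, so limma on the log scale took the place of their count model.

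TPM were divided by a median-of-ratios factor over the 15225 genes above 0 in all libraries (0.936 to 1.12), and values were analysed as log2(scaled TPM + 1). A mean of 0.5 TPM or more was required, which left 14229 genes, fitted with limma 3.58.1 in R 4.3.3 (lmFit, eBayes with trend) on genotype, with p-values adjusted by Benjamini-Hochberg over all of them. Ratios of chains and single chains were compared with two-sided exact permutation tests (scipy 1.17.1). The limma step was tested on simulated data for 14229 genes, where it recovered 28.9% of 200 genes changed by 0.5 on the log2 scale and 79.3% of those changed by 1. Gene models were matched by Ensembl identifier to GENCODE M21 on GRCm38, a different release from that of the authors. Chains with a mean TPM of at least 10, and other tested chains at an unadjusted p under 0.05 or without overlap, were described library by library, and at most 4 genes per pathway list were named, those with the lowest p under 0.05. For 1 gene of the TGF-beta pathway list, the name and values are not reported here. Other genes, such as *Col7a1* and *Col22a1*, were named after their values were seen. The collagen rule, classes, pathway lists and marker lists were chosen with earlier results of these data known. The labels give replicate numbers, and the methods name 4 mice per genotype. The p-values set the difference between genotypes against the spread between mice. At most 201 tested genes had the same TPM in a pair of libraries, so no library appears to repeat another. Alternatives were pseudocounts of 0.1 and 0.5, other filters and scalings, eBayes without trend, library weights, a replicate block and each library left out.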

Additional observations from a re-analysis of the deposited data

Results flagged for a closer look

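In 6 cases 1 library stood apart from the other 3 of its genotype, by Dixon's 95% criterion for the gap to the nearest library relative to the range. Chance gives this in about 1 in 20 groups, or 3 of the 60 groups checked. *Col4a2* was at 18.0 TPM in *Nup210*+/+ replicate 2 and at 22.5 to 23.2 TPM in the other *Nup210*+/+ libraries. The ratio of *Col1a1* to *Col1a2* was 0.485 in *Nup210*+/+ replicate 3 and 0.562 to 0.572 in the others. Summed collagen TPM was 399 in *Nup210*-/- replicate 2 and 337 to 338 in the others of that genotype. In the same library the fibroblast markers summed to 1575 TPM, against 1432 to 1443 TPM, and the tendon cell markers to 134 TPM, against 87.6 to 88.4 TPM. The granulocyte precursor markers summed to 382 TPM in *Nup210*+/+ replicate 2 and to 0.310 to 2.12 TPM in the other *Nup210*+/+ libraries.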

How the results depend on the processing

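The direction of all 15 chains described library by library was the same under all 17 alternatives. The alternatives reuse the same libraries, and the chains with a mean under 10 TPM were picked by their p or lack of overlap. Their stable direction is therefore partly fixed by that choice. The count of chains lower at an unadjusted limma p under 0.05 was 10 to 16, beside 12. The share of all genes lower at that p was 5.11 to 11.8%, beside 7.18%. No chain passed the adjusted p of 0.05 in limma except under library weights (2 chains) and a minimum mean of 1 TPM (1 chain). Lower without overlap were 6 chains, against 4.60% of all genes. The count was 11 with TPM as deposited (all genes 6.87%) and 4 with upper-quartile scaling (all genes 3.92%). With 1 library left out it was 7 to 13 (all genes 6.12 to 8.91%), so the background moved with the setting too. The median log2 fold change of -0.27 was -0.12 when all 44 chains above 0 were kept, where the log2(TPM + 1) scale holds low chains near 0, -0.34 with TPM as deposited (all genes -0.08), -0.25 with upper-quartile scaling (all genes 0.02), and -0.30 to -0.23 with 1 library left out. With the replicate number as a block, 0 chains passed the adjusted p, 11 were lower at an unadjusted p under 0.05, the median was -0.27, and the paired exact p of *Col6a1* to *Col4a1* was 0.125, the smallest 4 pairs allow. Same-numbered libraries showed little shared deviation (correlations -0.0329, 0.00537, 0.0193 and 0.0857). Only replicate 4 correlated most with its own number (0.0857, against 0.0287 at most with another). These values show no clear pairing by number, but they cannot exclude one. With 1 library left out, the log2 difference of *Col1a1* to *Col1a2* ran from -0.06 to 0.02, of *Col6a1* to *Col6a2* from -0.06 to 0.02, of *Col1a1* to *Col6a1* from -0.18 to 0.03 and of *Col1a1* to *Col4a1* from -0.49 to -0.33 (exact p 0.0286 without *Nup210*-/- replicate 2). That of *Col6a1* to *Col4a1* was -0.37 to -0.27, with p of 0.0571 when any *Nup210*-/- library was left out. Depth is unknown, and chains under 1 TPM rest on few reads.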
